A study of Arabidopsis thaliana with 6 samples.

Results

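The type-A response regulators of Arabidopsis thaliana were followed through 8 probe sets, 1 per gene, of the 22746 non-control probe sets on the Affymetrix ATH1 array. The genes are ARR4 (AT1G10470, 263236_at), ARR5 (AT3G48100, 252374_at), ARR6 (AT5G62920, 247406_at), ARR7 (AT1G19050, 259466_at), ARR8 (AT2G41310, 266372_at), ARR9 (AT3G57040, 251665_at), ARR15 (AT1G74890, 262212_at) and RR16 (AT2G40670, 266078_at, also called ARR16). They were chosen as a gene family and not by a rule on their values, though earlier results of these data were known. The platform annotation used here names 2 of them, ARR15 and RR16, while the other 6 pairs of probe set and locus come from the selection itself and were not checked against probe sequences. All 8 loci carry the given name as symbol or synonym in the RefSeq gene table.

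The arrays measured RNA of fluorescence-sorted lateral root cap cells, the outer layer around the growing root tip, of C24 seedlings grown for 5 days. All plants, untreated ones included, carried J2632-UAS::ARR1ΔDDK-GR: the enhancer trap line J2632 drives, in the cells it marks, the cytokinin-activated transcription factor ARR1 without its receiver domain, fused to a glucocorticoid receptor that holds it outside the nucleus until dexamethasone arrives. There were 3 groups of 2 biological replicates, 1 array each: untreated, dexamethasone for 1 h and dexamethasone for 4 h. No group lacked the construct and no untreated group was collected at 1 h or 4 h, so the fusion protein, dexamethasone itself and the hours passed cannot be told apart. ARR1 has no named probe set under this annotation, so the level of the fusion was not analysed here.

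Cytokinin is sensed by membrane-bound histidine kinases that pass phosphate through shuttle proteins to response regulators in the nucleus. Type-B regulators such as ARR1 bind DNA and switch on cytokinin target genes. Type-A regulators consist of a receiver domain with little else, lack a DNA-binding domain and dampen the same pathway. Their genes are classic early targets of type-B regulators, which makes them the usual readout of a cytokinin response. Within the family ARR5 and ARR6, ARR7 and ARR15, and ARR8 and ARR9 are pairs of closest relatives.

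Between 58.1% and 67.8% of probe sets exceeded background on an array, background being the 95th percentile of 27 control probe sets for Bacillus subtilis transcripts. The correlation of log2 levels was 0.957 within the untreated pair, 0.958 within the 1 h pair and 0.972 within the 4 h pair, against 0.953 to 0.969 between arrays of different groups. As a sign of RNA quality, GAPDH gave between 3.11 (untreated replicate 1) and 4.65 (1 h replicate 1) times more signal near its 3′ end than near its 5′ end. Both measured lateral root cap markers of the 7 listed, the polygalacturonase gene AT1G65570 and the carboxypeptidase-like scpl48, exceeded background on all 6 arrays. Of 9 listed markers of other root cells 3 could be measured, AGL42 of the quiescent centre, the cortex gene AT1G62500 and the root hair expansin EXPA7, and none exceeded background on any array.

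None of the 8 type-A genes passed the test in any comparison. Of the 6 genes above background on every array, 4 had lower means than untreated at both times (ARR5, ARR6, ARR8 and ARR9). For ARR5 this turned at both times without untreated replicate 2. ARR4 was lower at 1 h and higher at 4 h. ARR7 alone had higher means at both, but its 1 h ratios to background lay between the untreated ones. Over all probe sets, 49.6% of differences from untreated were above 0 at 1 h and 49.0% at 4 h. ARR15 and RR16 lay near or below background. The test was limma's, fitted to log2 of the intensity plus 16 over all probe sets and quantile normalized, with Benjamini-Hochberg adjustment over all 22746 and a threshold of 0.05. Differences, standard errors (SE) and 95% intervals are on that log2 scale unless called folds, intervals are for each gene alone, and folds of dim genes are understated by the added 16. Both dexamethasone groups were set against the same 2 untreated arrays, so differences at 1 h and 4 h are not independent of each other. In sorted-cell RNA, fewer cells of a type and less RNA per cell cannot be told apart.

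**Figure D1:**
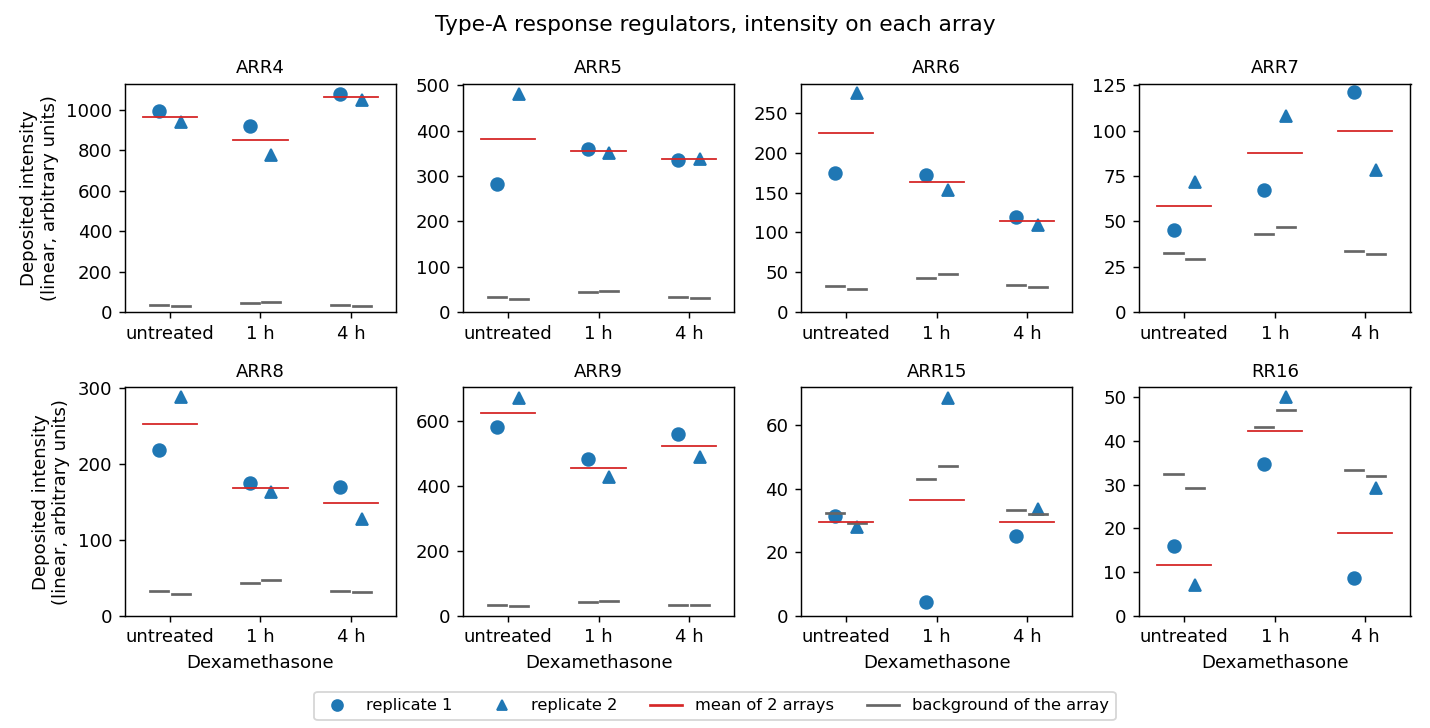
Deposited intensity (linear, arbitrary units, each axis starting at 0) of the 8 type-A genes on each array, with untreated, 1 h and 4 h of dexamethasone from left to right. Circles are replicate 1, triangles replicate 2, red lines the mean of 2 arrays and grey lines each array's background. ARR6 steps down over the 3 groups, ARR5 is flat apart from the gap between its untreated arrays, and ARR15 and RR16 sit around the grey lines.

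ARR5 and ARR6 are among the fastest cytokinin-induced genes known, and the ARR5 promoter is widely used as a cytokinin reporter. ARR5 read 283 and 481 in deposited intensity on the untreated arrays, 359 and 350.4 at 1 h, and 336 and 337 at 4 h. The untreated pair spanned all 4 dexamethasone arrays, which lay close together between its ends. The gap between the untreated arrays was 0.67 on the log2 scale, larger than that of 76.7% of probe sets, whereas the gap between the 4 h arrays was 0.00285. ARR5 differed from untreated by -0.05 at 1 h (SE 0.28, limma adjusted p = 0.992) and by -0.12 at 4 h (SE 0.28, adjusted p = 0.935). Its 95% interval at 1 h reached from -0.72 to 0.63, so that the upper end was a 1.54-fold higher level. Without untreated replicate 2 the difference turned to 0.29 at 1 h and 0.21 at 4 h.

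ARR6 was the only member that fell at each step in time without overlap between groups. Its intensity was 174 and 275 untreated, 173 and 153 at 1 h, and 119 and 109 at 4 h. No 2 of the 3 groups overlapped, but the lower untreated array and the higher 1 h array differed by little. A stepwise order of this kind, untreated above 1 h above 4 h without overlap on the normalized scale, was met by 411 probe sets, or 1.81% of all, and by 1 of the 8 members. Only this order, which is that of ARR6, was counted over all probe sets. The 3 groups of ARR4 and of ARR9 were also free of overlap, in other orders, so the share does not measure how unusual ARR6 is. The log2 level of ARR6 was 7.03 ± 0.09 at 4 h and 7.88 ± 0.35 in untreated cells (SD, n = 2 each), a difference of -0.86 (SE 0.26, 95% interval -1.48 to -0.24). The unadjusted limma p was 0.0142 and the adjusted p 0.412, so it did not pass. This difference was lower than that of all but 2.78% of probe sets. At 1 h the difference from untreated was -0.43 (SE 0.26, adjusted p = 0.914), and between 4 h and 1 h it was -0.43 as well (adjusted p = 0.665). Leaving out untreated replicate 2, whose ARR6 signal was the highest of all arrays, gave -0.60 at 4 h, and leaving out untreated replicate 1 gave -1.10.

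ARR7 and ARR15 are cytokinin-induced regulators with a described role in shoot and root stem cell niches. ARR7 was dim: it read 45.2 and 71.7 untreated, 67.2 and 108 at 1 h, and 121 and 78.0 at 4 h, between 1.39 and 3.63 times the background of its array. As a ratio to that background ARR7 was 1.39 and 2.46 untreated, 1.55 and 2.29 at 1 h, and 3.63 and 2.44 at 4 h. The 1 h ratios thus lay between the untreated ones, and the lower 4 h ratio lay just below the higher untreated one. In intensity, the 1 h arrays overlapped with both other groups, and only the 4 h and untreated groups were apart. ARR7 had a log2 level of 6.83 ± 0.40 at 4 h and 6.25 ± 0.31 in untreated cells (SD, n = 2 each), a difference of 0.59 (SE 0.34, limma adjusted p = 0.692). Of the members it lay highest at 4 h relative to untreated, at the 91.5th percentile of all differences, and the upper end of its interval was 2.65-fold. At 1 h it differed from untreated by 0.34 (SE 0.34, adjusted p = 0.945), with an upper end of 2.23-fold. Without 1 h replicate 2 that difference was 0.010.

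ARR15 read 31.3 and 27.8 untreated, 4.26 and 68.7 at 1 h, and 25.2 and 33.6 at 4 h. It exceeded background on 1 h replicate 2 and, by a narrow margin, on 4 h replicate 2. The gap between the 1 h arrays, 2.04 on the log2 scale, was larger than that of 99.9% of probe sets. No fold is given: both untreated arrays were below background, and the bound against them came to under 1. Its SE of 0.61 was the largest of the family.

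ARR8 and ARR9 respond less to cytokinin than ARR5 to ARR7 and are transcribed at a steadier level. ARR8 read 218 and 288 untreated, 175 and 163 at 1 h, and 170.2 and 128 at 4 h. Both dexamethasone groups lay below both untreated arrays and overlapped with each other. The log2 level of ARR8 was 7.36 ± 0.26 at 4 h and 8.06 ± 0.19 in untreated cells (SD, n = 2 each). The difference of -0.70 (SE 0.25, 95% interval -1.29 to -0.11) had an unadjusted limma p of 0.0275 and an adjusted p of 0.467. At 1 h it was -0.55 (SE 0.25, adjusted p = 0.879), with an interval of -1.14 to 0.05.

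ARR9 read 579.6 and 670.2 untreated, 482 and 426 at 1 h, and 559.9 and 487 at 4 h. Its groups did not overlap, with untreated highest and 1 h lowest, although 4 h replicate 1 came within 0.01 of untreated replicate 1 on the log2 scale (9.19 on both). The difference from untreated was -0.43 at 1 h (SE 0.23, limma adjusted p = 0.904) and -0.21 at 4 h (SE 0.23, adjusted p = 0.848). Between 4 h and 1 h ARR9 differed by 0.21 (SE 0.23, adjusted p = 0.822).

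ARR4, which also binds the photoreceptor phytochrome B, varied least about its own mean of the 6 genes above background on every array. It read 994 and 941 untreated, 922 and 776 at 1 h, and 1078 and 1052 at 4 h. Although 1 h replicate 1 and untreated replicate 2 were close (log2 levels 9.89 and 9.90), the groups did not overlap, with 1 h lowest and 4 h highest. Differences were nevertheless small beside their errors: -0.15 at 1 h (SE 0.22, limma adjusted p = 0.969) and 0.15 at 4 h (SE 0.22, adjusted p = 0.892), both against untreated. The interval at 4 h ran from -0.37 to 0.68, which puts its upper end at 1.60-fold.

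RR16, known from the stomatal lineage of leaves among other places, had the largest positive difference of the family at 1 h and the weakest signal behind it. Its intensity was 16.002 and 7.10 untreated, 34.7 and 50.1 at 1 h, and 8.62 and 29.2 at 4 h. Both 1 h arrays were above the 4 others, but background was also higher on them, at 43.2 and 47.1 against 32.5 and 29.1 on the untreated arrays. As a ratio to the background of its own array, RR16 was 0.80 and 1.06 at 1 h and 0.49 and 0.24 untreated, so that 1 of the 6 arrays exceeded it, and none did when the highest control was taken instead. The fitted difference of 0.98 (SE 0.39) therefore compares levels around background. Its unadjusted limma p was 0.0419 and its adjusted p 0.837. No fold is given: both untreated arrays were below background, 1 of the 1 h arrays was below it and the other barely above. The bound against the untreated arrays came to little over 1. At 4 h no array exceeded background.

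**Figure D2:**
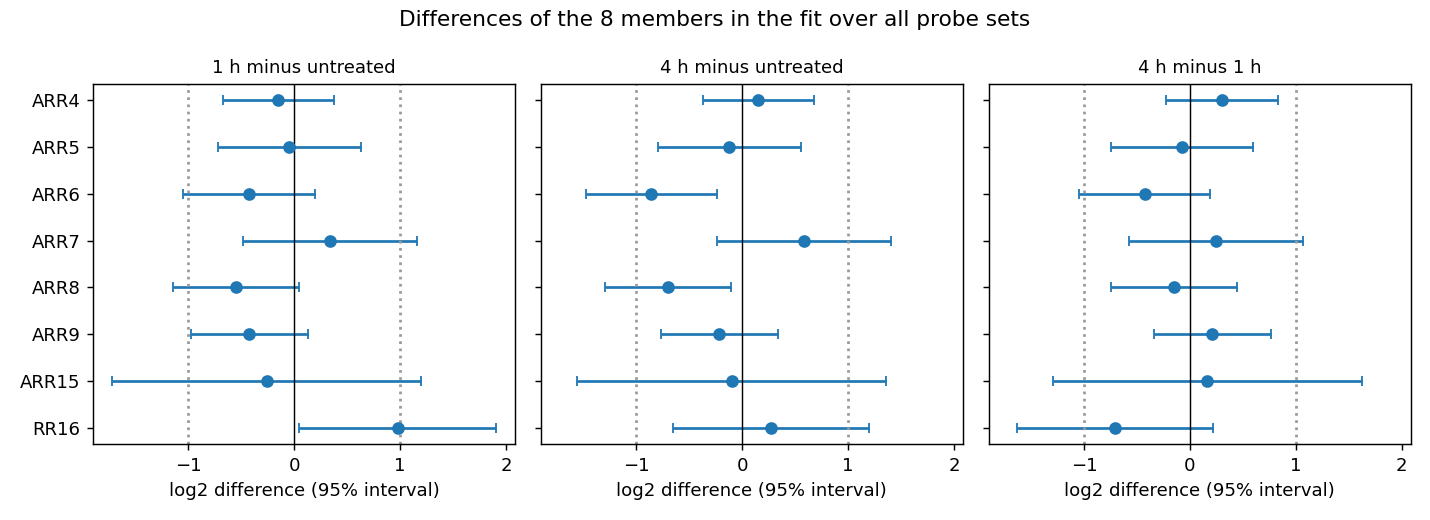
Log2 differences of the 8 members for 1 h minus untreated, 4 h minus untreated and 4 h minus 1 h. Points are estimates of the fit and bars their 95% intervals for each gene alone, with dotted lines at a 2-fold change in either direction. At 4 h minus untreated the intervals of ARR6 and ARR8 lie below 0. At 1 h minus untreated that of RR16, whose signal is around background, lies above 0. The intervals of ARR15 and RR16 are the widest.

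Read across the family, the counts were as follows. At 1 h against untreated 0 of 8 members passed, as did 0% of all probe sets, and 2 of 8 had a difference above 0, beside 49.6% of all probe sets. At an unadjusted p under 0.05 there was 1 member, RR16, against 5.78% of all probe sets. The 1 h and untreated arrays did not overlap for 5 members, 4 of them lower at 1 h (ARR4, ARR6, ARR8 and ARR9) and 1 higher (RR16). Over all probe sets 31.1% did not overlap, 15.7% lower and 15.5% higher at 1 h. The median difference of the 8 members was -0.21, beside -0.0024 for all probe sets.

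At 4 h against untreated 0 of 8 members passed, against 0.00440% of all probe sets, which is 1 probe set. ARR6 and ARR8 had an unadjusted p under 0.05, a level reached by 9.08% of all probe sets. The difference was above 0 for 3 of 8 members, beside 49.0% of all probe sets. Groups did not overlap for 5 members, ARR6, ARR8 and ARR9 lower and ARR4 and ARR7 higher at 4 h, and 40.6% of all probe sets were of this kind, 20.6% lower and 20.0% higher. The median difference of the members was -0.11 and that of all probe sets -0.01. For 4 h against 1 h 0 of 8 members passed (0.0220% of all probe sets) and 0 had an unadjusted p under 0.05 (9.24%). In this comparison 4 members were above 0 and 4 below, and the groups of 5 did not overlap, ARR4 and ARR9 being higher at 4 h, and ARR5, ARR6 and RR16 lower (43.8% of all probe sets, 21.8% higher and 22.1% lower). Among the 6 members above background on every array, the differences ran from -0.43 for ARR6 to 0.30 for ARR4 (SE 0.22, limma adjusted p = 0.720).

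**Figure D3:**
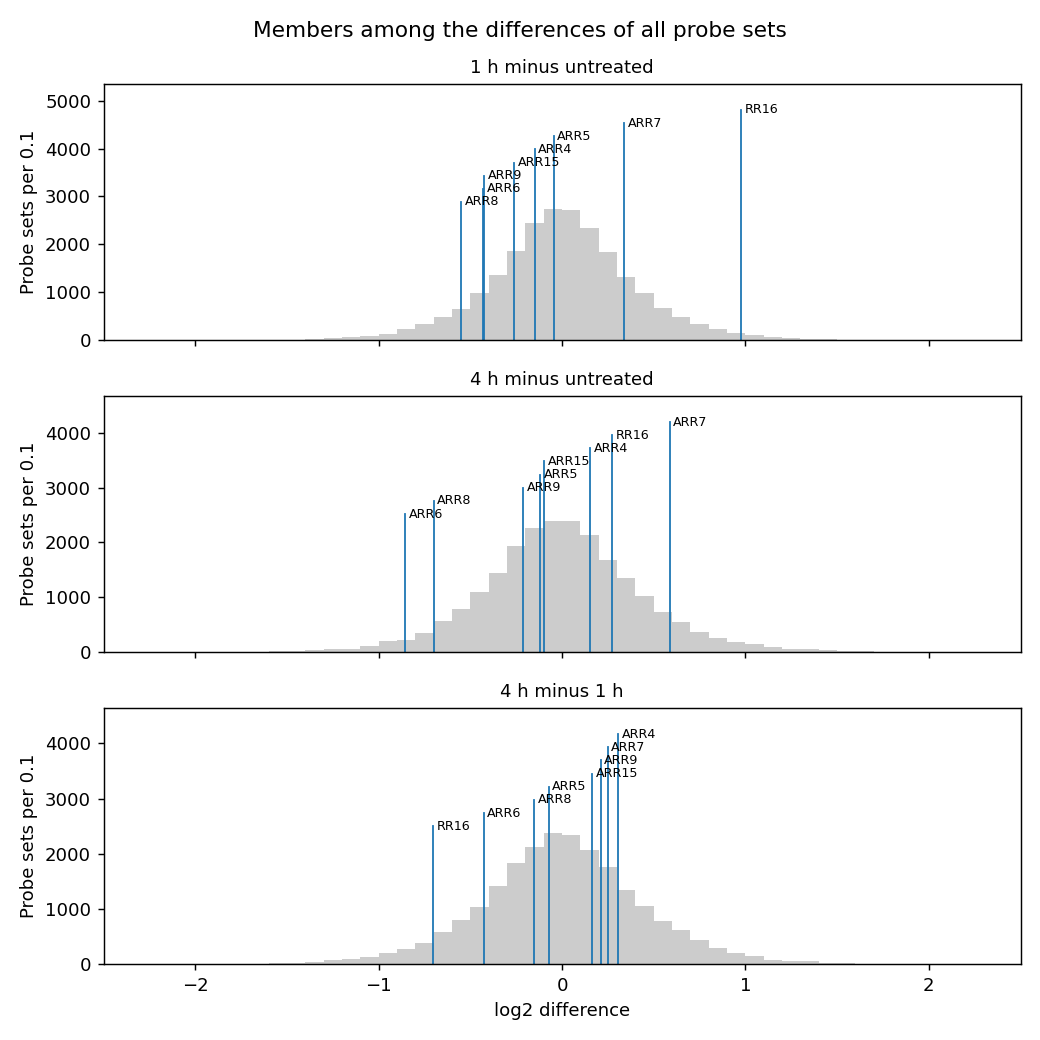
Number of probe sets per 0.1 of log2 difference (grey bars, 22746 in all, shown from -2.5 to 2.5) with each member's difference as a blue line, whose height only keeps the names apart. The members are spread over the body of the distribution in all 3 comparisons, with RR16 at 0.98 on the right at 1 h and ARR6 at -0.86 on the left at 4 h.

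The intervals, taken for each gene alone, bound the size of a rise only under the fit, which shares 1 estimate of each gene's spread over the 3 groups. For ARR5 the SD was 0.47 untreated, 0.04 at 1 h and 0.002 at 4 h, so the shared spread is below that of its untreated arrays. Among the 6 members above background on every array, the upper end of the 95% interval was under 2-fold for 5 at 1 h and for 5 at 4 h, namely ARR4, ARR5, ARR6, ARR8 and ARR9 at both times. The same held for 86.4% of all probe sets above background on every array at 1 h and for 82.6% at 4 h. ARR7 was the exception. At 1 h the upper ends ran from 1.03-fold for ARR8 to 1.54-fold for ARR5 among those 5 genes. At 4 h they ran from 0.85-fold for ARR6 to 1.60-fold for ARR4. ARR15 and RR16, with signals at background, are left out of this count.

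Replicate spread differed between groups, and not in the same way for each member. In the untreated group replicate 2 was the higher one for 5 of 8 members (ARR5, ARR6, ARR7, ARR8 and ARR9), by 0.22 to 0.67 on the log2 scale, while the median difference between these arrays over all probe sets was 0.01 towards replicate 1. The median absolute gap between replicates over all probe sets was 0.35 untreated, 0.31 at 1 h and 0.23 at 4 h. Untreated replicates thus differed for ARR5, ARR6, ARR7 and RR16 by more than the typical probe set, and for ARR4, ARR8, ARR9 and ARR15 by less. From untreated to 4 h the gap was larger for ARR7 (0.44 and 0.56), ARR8 (0.27 and 0.37), ARR15 (0.06 and 0.24) and RR16 (0.57 and 0.89). It was smaller at 4 h for ARR4, ARR5, ARR6 and ARR9.

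The courses of the members over the 6 arrays were compared by the root mean square difference of their centred log2 levels. Of the 28 pairs of members ARR6 and ARR8 were most alike, at 0.15, followed by ARR4 and ARR9 at 0.18 and ARR8 and ARR9 at 0.21. The other pairs of closest relatives were farther apart, ARR5 and ARR6 at 0.31 and ARR7 and ARR15 at 0.57. Beyond the family, among 6347 named probe sets above background on every array, the nearest were AT4G39150 to ARR4 (0.04), AT1G48830 to ARR5 (0.05), AT2G41170 to ARR9 (0.05), AT1G79150 to ARR7 (0.07), AT5G44170 to ARR8 (0.08) and AT3G24750 to ARR6 (0.10). The second nearest were AT3G52030, AT2G40430, AT1G30200, AT5G08180, AT4G36640 and AT2G43945 in the same order of members. With 6 arrays and this many candidates, close matches are a description of these arrays and no sign of a link.

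Other genes of the cytokinin pathway could be measured in small part, because few have a named probe set in the annotation used. That annotation does not list 8730 of the probe sets and gives several genes for 503. A gene without a named probe set may therefore still be on the array. Of 11 type-B regulators 2 were measured, ARR18 and ARR19 (RR18 and RR19 in the annotation), and neither exceeded background on any array. None of the 3 receptors, 6 phosphotransfer proteins, 6 cytokinin response factors, 18 synthesis genes or the 2 further type-A genes ARR3 and ARR17 had a named probe set. Of 10 genes of cytokinin breakdown and conjugation UGT76C1 and UGT76C2, which attach glucose to cytokinin, were measured. UGT76C2 exceeded background on 4 arrays and UGT76C1 on none. UGT76C2 read 45.7 and 56.5 untreated, 58.4 and 30.6 at 1 h, and 55.7 and 25.5 at 4 h, with a difference of -0.36 at 4 h (SE 0.35, limma adjusted p = 0.826). The 5 measured glutaredoxin genes of 6, often listed as cytokinin-responsive, exceeded background on 0 or 1 array each. In each comparison 0 of these 9 pathway genes passed, beside 0% of all probe sets at 1 h and 0.00440% at 4 h against untreated and 0.0220% at 4 h against 1 h. Since 8 of the 9 exceeded background on at most 1 array, this count does not describe a response of the pathway.

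Markers of the sorted cells differed between arrays as well. AT1G65570 had a log2 level of 10.61 at 1 h and 9.47 in untreated cells, a difference of 1.15 (SE 0.26, limma adjusted p = 0.759), and was 9.73 at 4 h. The level of scpl48 was 11.29 at 4 h and 11.91 in untreated cells, a difference of -0.62 (SE 0.24, adjusted p = 0.518). At 4 h against untreated AT1G65570 differed by 0.27 (SE 0.26, adjusted p = 0.823), a difference about as large as its SE. At 4 h against 1 h both markers were lower. AT1G65570 differed by -0.88 (SE 0.26, limma adjusted p = 0.414) and scpl48 by -0.85 (SE 0.24, adjusted p = 0.410). In the same comparison ARR6 differed by -0.43 and ARR8 by -0.15. At 4 h against untreated, where the 2 markers differed in direction, ARR6 differed by -0.86 and ARR8 by -0.70. The part of the marker shifts in the members' values was not tested.

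**Figure D4:**
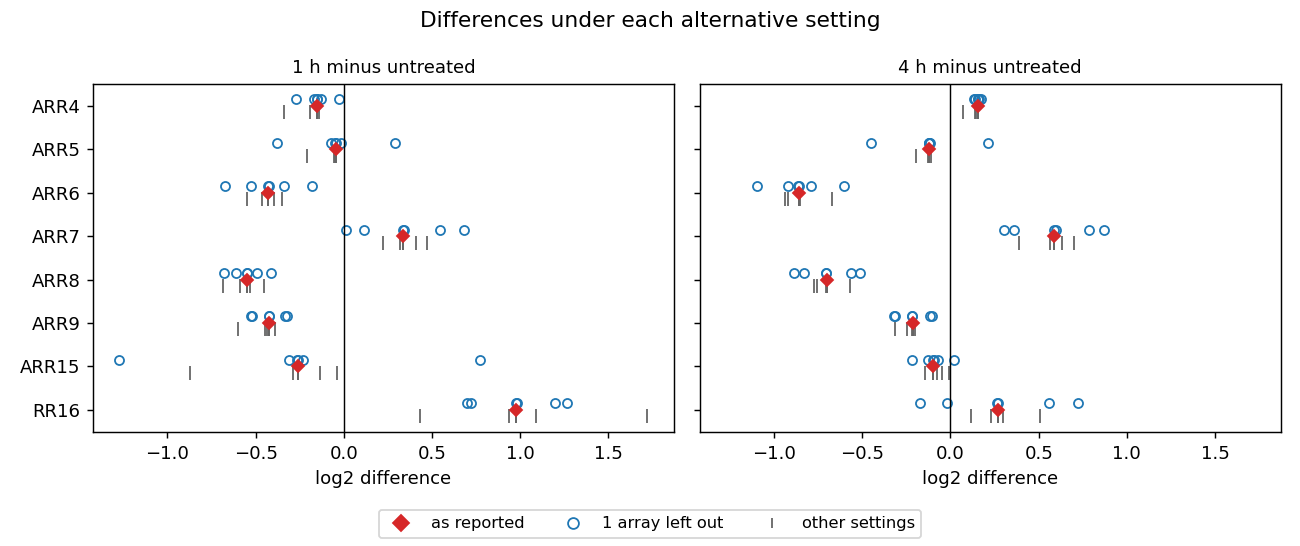
Log2 differences of the 8 members for 1 h minus untreated (left) and 4 h minus untreated (right) under each of 14 alternatives. Red diamonds are the values given in the text, open circles fits with 1 array left out, and grey ticks other settings. ARR6 and ARR8 stay below 0 and ARR7 stays above 0 at both times. ARR5 and ARR15 fall on both sides of 0 at both times, and RR16 does so at 4 h.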

How the data were processed

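The deposited table gives a linear intensity for each probe set on each of 6 arrays. RNA was labelled with biotin in 2 cycles, per the labels. The software that summarised the probes is not given in the sources used here. The trimmed mean intensity (2% off each end) of every deposited column was 250.03, which points to a common scaling.

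After removal of 64 control probe sets, 16 was added to each intensity before taking log2. Medians spanned 0.215, over the limit of 0.1, and the arrays were therefore quantile normalized. A model with a term for each group used all 6 arrays (limma 3.58.1, R 4.3.3). It was also run on simulated data, and the outcome of that run is not given here. All p-values are two-sided and n is 2 arrays per group. The labels call replicates biological. The number of arrays limits the precision.

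Names came from the platform annotation of 2016 and RefSeq. The members, gene lists, tests and alternatives were chosen with earlier results of these data known. All 8 members were to be given in every comparison. Of each list, members past the threshold were to be named, or else the 2 largest differences at 4 h among genes above background on at least 4 arrays, and for each member above background on every array the 2 most similar courses. Other listed genes are named as the measured ones of their list. A bound on a fold would compare the brighter group's mean with the lowest level above background on each array of the dimmer group, and none is printed. Alternatives changed the pseudocount, normalization, background filter, prior variance, groups fitted, replicate term and arrays.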

Additional observations from a re-analysis of the deposited data

How the results depend on the processing

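No member passed under any of the 14 alternatives in any comparison, and the smallest adjusted p of a member was 0.568 at 1 h against untreated, 0.206 at 4 h against untreated and 0.454 at 4 h against 1 h. Of 333 member differences recomputed under the alternatives, 321 kept their direction and 12 turned it, 10 of them with 1 array left out. RR16 did not pass the background filter, so it has no value under it. With each array left out in turn, differences from untreated at 1 h ran from -0.38 to 0.29 for ARR5 (above 0 without untreated replicate 2) and from -1.27 to 0.77 for ARR15 (above 0 without 1 h replicate 1). At 4 h against untreated they ran from -0.45 to 0.21 for ARR5 (above 0 without untreated replicate 2), from -0.22 to 0.022 for ARR15 (above 0 without 4 h replicate 1) and from -0.18 to 0.72 for RR16, which was -0.020 without untreated replicate 2 and lowest without 4 h replicate 2. For 4 h against 1 h they ran from -0.084 to 0.58 for ARR7 (below 0 without 1 h replicate 1, and -0.035 without 4 h replicate 1), from -0.34 to 0.035 for ARR8 (above 0 without 4 h replicate 2) and from -0.87 to 1.18 for ARR15 (below 0 without 1 h replicate 1). In that comparison ARR15 was -0.0084 with a pseudocount of 64, and ARR5 0.012 with columns shifted to a common median. That shift put the median of all probe sets at -0.10 at 1 h against untreated, with the members at a median of -0.31. The cause of these turns was not tested.

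Of all probe sets, 1 was called at 4 h against untreated. The count was 0 with a pseudocount of 1, 108 with a pseudocount of 64, 8 with the background filter, 123 with a prior variance tied to signal level, 0 with only the groups compared and 0 with a replicate block. For 4 h against 1 h the count was 5, against 0, 42, 17, 53 and 0 under the first 5 of these and 5 with a replicate block. Leaving out 1 array gave 0 in both comparisons. At 1 h against untreated it was 0 throughout. Same-numbered arrays shared little deviation over all probe sets, with correlations of 0.12, -0.02 and -0.04 over the 3 pairs of groups. These values cannot tell whether same-numbered samples were prepared together. With the replicate block 0 members passed. With the highest control as background, chosen after seeing the data, 6 members exceeded it on every array, as with the 95th percentile. Signals near background limit ARR7, ARR15 and RR16.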
